A study of Mus musculus with 2 samples.

Results

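Cell cycle genes are described here as a set of 39 members of the 32285 genes in the deposited matrices, chosen by their symbols. The set holds 3 G1 and G1/S cyclins (Ccnd1, Ccne1, Ccne2), 9 genes of the S phase, 25 genes of the G2 and M phases, Stmn1 and Cdkn1a. Every member was found in both matrices. RNA of liver cells was counted in 2 droplet libraries, each from 1 mouse of a tumour-bearing Glul f/f strain, collected 7 weeks after virus. In the control mouse the virus was AAV8-GFP. In the mouse called GS-KO it was AAV8-Cre, which removes the floxed part of Glul, the gene for glutamine synthetase. The series title names the tumours as hepatocellular carcinoma with mutant β-catenin, and both mice carried the floxed alleles and a virus. AAV8 reaches mainly hepatocytes, so other cells of the GS-KO mouse may keep the gene. Cells came from the fluid above the pellet of a slow spin, were enriched for F4/80 (a macrophage surface protein) and passed through dead cell removal, so the shares of classes reflect this preparation.

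A cell that divides copies its DNA in S phase, prepares in G2 and separates its chromosomes in M phase. Cyclin D1 (Ccnd1) and the E cyclins drive entry into S phase, the replication helicase and the enzymes of nucleotide supply act within it, and genes of the spindle, the kinetochore and cyclin destruction are switched on late. Hepatocytes of the adult liver are mostly quiescent, Kupffer cells (the resident liver macrophages) can renew themselves by division, and p21 (Cdkn1a) holds the cycle in response to p53.

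Promoters are shown for the S and G2/M members with most UMIs (molecules counted by their identifiers), because late genes are known to share the CHR and CCAAT elements, and for Cdkn1a, a known target of p53. Each sequence is 300 bases from RefSeq on GRCm38.p6, read 5′ to 3′ on the gene's strand, from 250 bases before the start to 50 after it. Capitals mark matches on either strand to the E2F motifs TTTCCCGC, TTTGGCGC, TTTCGCGC or TTTGCCGC, to the CHR motifs TTTGAA or TTTAAA, to CCAAT, or to the p53 half-site; neighbouring matches can overlap.
Pcna (chr2:132253131-132253430, minus strand): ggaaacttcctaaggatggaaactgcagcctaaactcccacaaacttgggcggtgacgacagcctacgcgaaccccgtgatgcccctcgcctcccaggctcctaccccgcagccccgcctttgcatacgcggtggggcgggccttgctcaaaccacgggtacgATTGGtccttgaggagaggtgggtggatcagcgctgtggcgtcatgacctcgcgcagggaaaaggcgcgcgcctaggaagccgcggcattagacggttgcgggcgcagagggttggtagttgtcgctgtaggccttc
Tk1 (chr11:117825965-117826264, minus strand): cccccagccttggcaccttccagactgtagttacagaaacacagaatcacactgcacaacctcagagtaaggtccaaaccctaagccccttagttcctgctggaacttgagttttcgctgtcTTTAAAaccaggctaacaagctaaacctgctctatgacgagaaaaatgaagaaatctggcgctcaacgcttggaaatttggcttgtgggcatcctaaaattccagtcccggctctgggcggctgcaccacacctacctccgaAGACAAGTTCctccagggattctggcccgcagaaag
Ube2c (chr2:164769679-164769978, plus strand): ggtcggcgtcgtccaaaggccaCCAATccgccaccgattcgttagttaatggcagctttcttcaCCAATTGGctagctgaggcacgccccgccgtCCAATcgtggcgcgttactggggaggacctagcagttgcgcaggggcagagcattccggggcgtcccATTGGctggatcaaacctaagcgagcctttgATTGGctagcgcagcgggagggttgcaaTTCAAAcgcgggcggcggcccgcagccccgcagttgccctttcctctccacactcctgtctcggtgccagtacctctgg
Birc5 (chr11:117848987-117849286, plus strand): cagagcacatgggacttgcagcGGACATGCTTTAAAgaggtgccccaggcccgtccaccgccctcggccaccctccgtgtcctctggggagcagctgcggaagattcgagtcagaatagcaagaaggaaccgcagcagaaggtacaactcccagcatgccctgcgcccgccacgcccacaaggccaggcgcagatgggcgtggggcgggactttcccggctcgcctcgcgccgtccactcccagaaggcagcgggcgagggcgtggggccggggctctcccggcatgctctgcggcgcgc
Cdkn1a (chr17:29090729-29091028, plus strand, 1 of 2 entries): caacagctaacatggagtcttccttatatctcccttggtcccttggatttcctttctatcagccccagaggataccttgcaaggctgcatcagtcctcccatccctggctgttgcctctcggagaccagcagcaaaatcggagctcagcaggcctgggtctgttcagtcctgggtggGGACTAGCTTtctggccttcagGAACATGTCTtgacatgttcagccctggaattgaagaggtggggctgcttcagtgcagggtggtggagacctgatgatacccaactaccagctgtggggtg
Pcna, the sliding clamp of DNA polymerase, held 1 CCAAT box. Tk1 (thymidine kinase) held 1 CHR element 128 bases before the start and 1 p53 half-site. Ube2c, the ubiquitin-conjugating enzyme that works with the anaphase-promoting complex, held 6 CCAAT boxes and 1 CHR element at 29 bases before the start. Birc5 (survivin, of the chromosomal passenger complex) held 1 CHR element and 1 p53 half-site. The Cdkn1a entry shown held 2 p53 half-sites, and its other entry held 0. Of the 39 members 32 had an entry, and Ccnd1 had none. A CHR element stood in 20 of the 22 G2/M promoters (21 of 25 genes) and a CCAAT box in 20, against 27.6% and 37.4% of all 32851 promoters. Of the 9 S promoters, 4 held a CHR element, 7 a CCAAT box and 3 an E2F motif, the last against 2.26% of all promoters. A match describes letters in this window and is not a measured site.

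In the control 64770011 UMIs fell on 5074 barcodes, and in GS-KO 8805330 on 1366. The filter asked for 500 UMIs, 200 genes and a mitochondrial share of 20% or less, and it left 3275 control cells (median 7397 UMIs) and 662 GS-KO cells (median 4114). The libraries shared 1 barcode in all and 0 among those kept. Glul, the targeted gene, stood at 1500 CPM (UMIs of a gene per 1000000 UMIs of the group) over the kept control cells and 122 over the kept GS-KO cells; the libraries hold different shares of hepatocytes. Doublets called by Scrublet numbered 24 and 7 and stayed in. Since each group is 1 mouse and 1 library, mouse, batch and genotype cannot be told apart. There is no replicate check and no test, and all intervals are exact 95% intervals that cover counting error only.

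A cell was called dividing when UMIs of at least 2 different G2/M members remained after it was thinned to 1000 UMIs, with shallower cells (198 control, 56 GS-KO) left out. In the control library 186 of 3077 cells met the call, 6.04% (5.23 to 6.95), and in the GS-KO library 12 of 606, 1.98% (1.03 to 3.43). Without thinning the shares were 23.9% and 8.46%, and deeper cells then pass more easily. Near the limit, 265 control and 55 GS-KO cells had exactly 1 such gene, and 49 and 4 exactly 2. Of the called cells, 0 control and 1 GS-KO cell were called doublets. If each cluster of the GS-KO library divided at the control rate, 3.70% of its cells in shared clusters would be called, beside the 1.98% counted. The part of the mix of cells in the gap between the libraries was not tested.

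Dividing cells in the control mouse mostly carried markers of hepatocytes, macrophages or cytotoxic lymphocytes. Whether the hepatocyte-like ones were tumour cells or normal hepatocytes was not tested. The 17 clusters were named "-like" from fixed marker lists. They were made without 233 listed cycle and histone genes, the members among them, while cycle genes off those lists stayed eligible. Of 470 control hepatocyte-like cells 57 were dividing, 12.1% (9.32 to 15.4). This class joins 2 clusters. Cluster 14, with Cyp2a5 and Cyp1a2 among its leading genes, had 56 dividing cells of 415, 13.5% (10.4 to 17.2). Cluster 6, with Serpina1c and Mup3 among its leading genes, had 1 of 55, 1.82% (0.046 to 9.72). The RNA of the 57 dividing cells held 7846 CPM of Alb (albumin), 14739 of Apoe and 61.0 of C1qa. C1qa is a macrophage gene that stood at 7004 in dividing cells of cluster 13. Cluster 10, whose leading genes were Gzma, Ccl5, Nkg7 and Ncr1 and whose T and NK marker counts tied, had 20 dividing cells of 129, 15.5% (9.73 to 22.9). Its dividing cells carried 351 CPM of Cd3e, a subunit of the T cell receptor complex, and 354 of Ncr1, a receptor of NK cells. T-like cells gave 0 of 210, B-like cells 0 of 458 and monocyte-like cells 0 of 108, which allow shares of up to 1.43%, 0.655% and 2.78% by the 3-count limit used for counts of 0 (exact upper limits 1.74%, 0.802% and 3.36%). Neutrophil-like cells, taken as the background because mature neutrophils do not divide, gave 1 of 96, 1.04% (0.0264 to 5.67), at a median of 2348 UMIs against 33894.5 in hepatocyte-like cells.

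In the macrophage lineage division was gathered in cluster 13, led by Top2a, Mki67, Tk1 and histone genes. Pclaf, a cycle gene that was not left out of the clustering, was also among its leading genes. The part of such genes in forming the cluster was not tested. Of its 56 control cells 49 were dividing, 87.5% (75.9 to 94.8). Every one of those 49 carried macrophage markers, from 15560 to 66389 CPM over the 15 genes of the list, and their summed Kupffer markers ranged from 289 to 23136 CPM with a median of 13459. The macrophage list holds Apoe, and dividing control hepatocyte-like cells held 3635 to 37909 CPM over it, so its sum alone does not separate the classes. Clec4f, a Kupffer cell lectin, stood at 3227 CPM in the 49 cells, against 25.9 in dividing hepatocyte-like cells. The other Kupffer- and macrophage-like clusters held 18 dividing cells of 1108, 1.62% (0.966 to 2.56). The cluster was named Kupffer-like with 5 markers, the least the rule allows, and it stayed outside the named classes under some alternatives, so it is given by number here.

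Shallow cells of 2 unnamed clusters also met the call. Cluster 2, with hepatocyte RNA and a median of 1352 UMIs in the control library, gave 21 of 124 cells, 16.9% (10.8 to 24.7), and cluster 3, with macrophage RNA and a median of 1511 UMIs, gave 17 of 192, 8.85% (5.24 to 13.8). When each cell was instead assigned to the marker list with most UMIs in it, a choice made after seeing the data, the 186 dividing control cells were 98 with Kupffer or macrophage markers, 66 with hepatocyte, 10 with T, 10 with NK, 1 with endothelial and 1 with neutrophil markers; 3 dividing cells had tied lists. Of the 98, 7 lay among hepatocyte-like cells and 5 in cluster 2. The macrophage list holds Apoe, which stood at 14739 and 14569 CPM in the dividing cells of these groups. By that assignment 5.96% (4.87 to 7.22) of 1643 macrophage and 14.1% (11.1 to 17.6) of 469 hepatocyte control cells were dividing. These shares do not rest on the clusters.

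**Figure D1:**
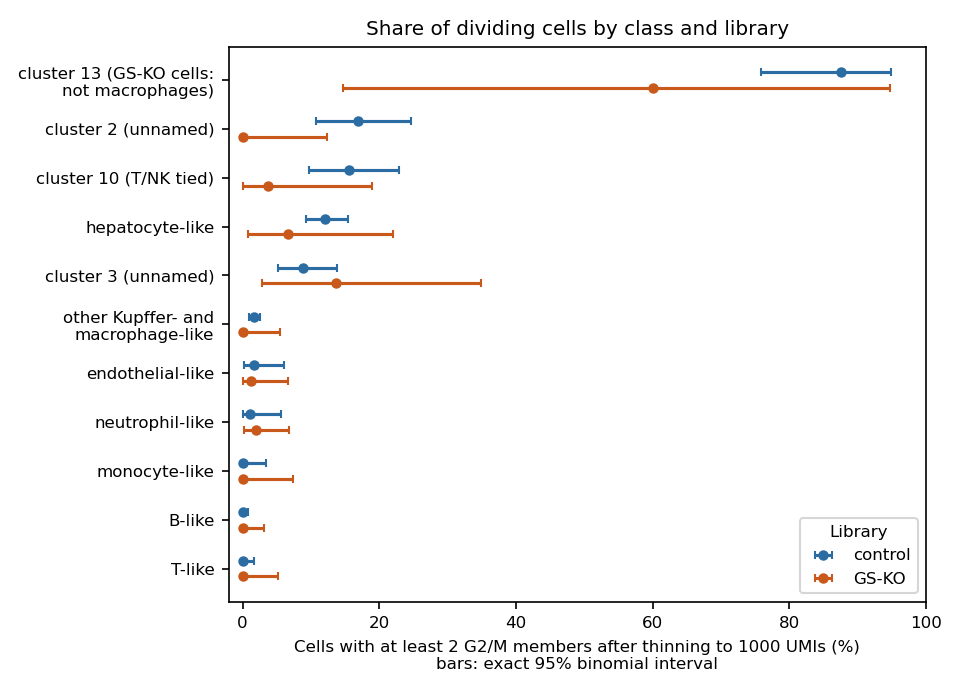
Share of cells called dividing (horizontal axis, percent of cells with at least 1000 UMIs) by class or cluster, control in blue and GS-KO in orange, with exact 95% binomial intervals. Control cluster 13 stands at 87.5%, control hepatocyte-like cells and cluster 10 at 12.1% and 15.5%, and T-like, B-like and monocyte-like cells at 0 in both libraries.

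The 12 dividing GS-KO cells were only in part of the same kinds. By the marker list with most UMIs, 3 carried erythroid, 3 neutrophil, 3 Kupffer or macrophage, 2 hepatocyte and 1 NK markers, while erythroid markers led in 0 of the 186 dividing control cells. All 3 erythroid ones lay in cluster 13. They held 52 of 1566, 405 of 63385 and 604 of 82800 UMIs in erythroid markers such as Hba-a1 and Hbb-bs (globins) and Car2 (carbonic anhydrase), and 0, 11 and 16 UMIs in all Kupffer and macrophage markers together. The last 2 of these cells had UMIs of all 25 G2/M members, 267 and 229 in sum. The other 2 GS-KO cells of cluster 13 were not called dividing; 1 of them had 646 UMIs of Elane and 240 of Mpo, genes of early granulocytes, and the 2 had 13 and 12 UMIs of Kupffer and macrophage markers. Summed over the 5 cells, macrophage markers stood at 113 CPM (4 of the 15 with a UMI) against 35191 in the control cells of the cluster, and erythroid markers at 4873 against 7.48. The name therefore does not hold for them, and results for the macrophage class are given with and without them.

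Both deep dividing GS-KO cells with neutrophil markers carried granule genes made during neutrophil maturation. In 1 of them, in the neutrophil-like cluster, 17276 of 34191 UMIs were neutrophil markers, with 6789 of S100a8, 1863 of Camp and 822 of Ngp, beside 203 UMIs of 23 G2/M members and 9 UMIs of S members. The other, in cluster 3, held 2330 of S100a8 and 909 of Camp among 39306 UMIs, beside 98 G2/M and 51 S UMIs. The dividing cell of cluster 10 held 424 UMIs of Gzma (granzyme A) and 31 of Ncr1, with 175 G2/M and 6 S UMIs. The 2 dividing hepatocyte-like cells had 12828 and 18292 UMIs, with 46 and 5 of G2/M members and 181 and 325 of Alb. The remaining 4 had 1027 to 3148 UMIs and 2 to 9 UMIs of G2/M members, and 1 of them, in the endothelial-like cluster, was a called doublet.

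The plot of members by class shows which genes carried these differences. In control cluster 13 the G2/M members summed to 6299 CPM (6177 to 6424), in cluster 10 to 2590 (2498 to 2684), in hepatocyte-like cells to 952 (940 to 965) and in the other Kupffer- and macrophage-like cells to 143 (138 to 148). Clusters 2 and 3 stood at 800 and 565, neutrophil-like cells at 252 and endothelial-like cells at 178. B-like cells stood at 109, T-like at 92.1 and monocyte-like at 69.8. S members followed a flatter order. They stood at 1322 CPM in cluster 13, 804 in cluster 10, 358 in cluster 3, 291 in endothelial-like cells and 217 in cluster 2. The other Kupffer- and macrophage-like cells had 190, hepatocyte-like 158, T-like 139, monocyte-like 135, B-like 121 and neutrophil-like cells 48.1 CPM. The S sum of hepatocyte-like cells (153 to 163) was thus close to that of T-like cells (118 to 162), whose intervals overlap, while their G2/M sums lay far apart.

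**Figure D2:**
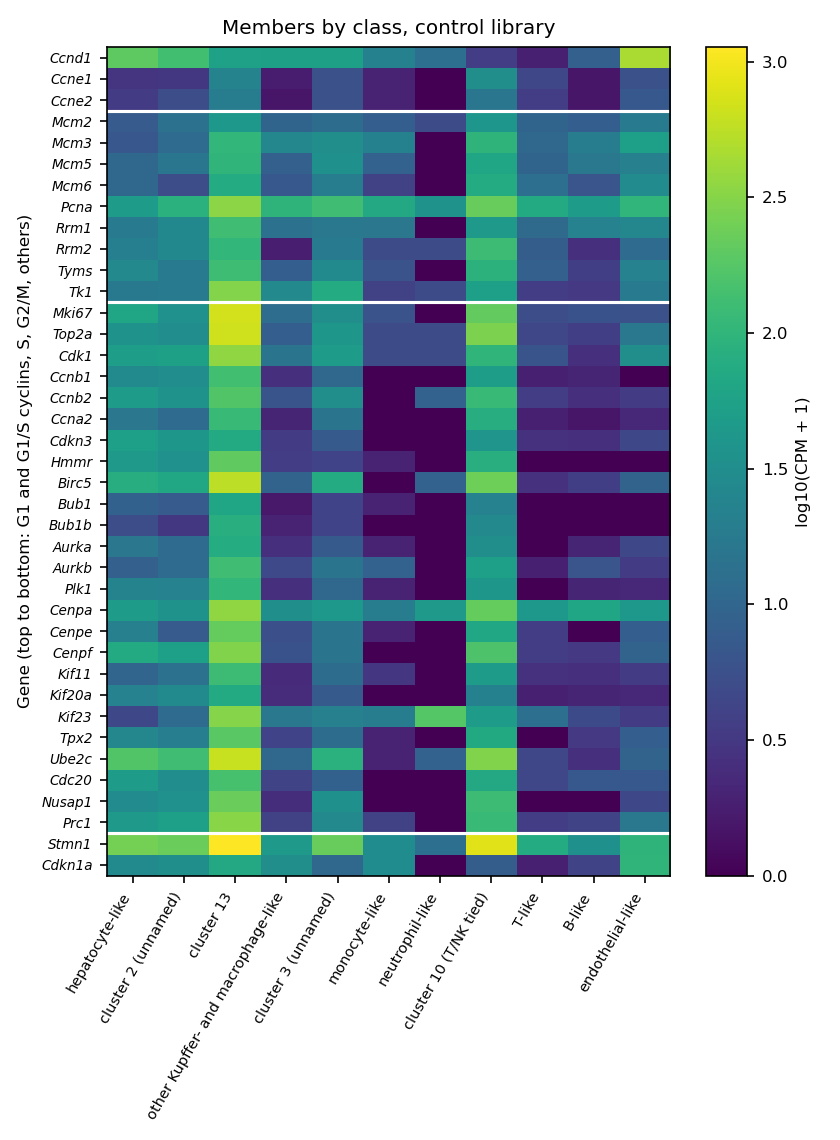
Level of each of the 39 members (rows, grouped by role) in each class or cluster (columns) of the control library, as log10(CPM + 1). Cluster 13 and cluster 10 are high across the S and G2/M rows, hepatocyte-like cells across the G2/M rows, and endothelial-like cells are highest for Ccnd1 at 461 CPM.

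Among G2/M members, the most abundant ones differed by class. In hepatocyte-like cells Ube2c led with 165 CPM, followed by Birc5 with 80.0, and Mki67, the proliferation antigen Ki-67, stood at 61.9. Cluster 13 had 692 CPM of Mki67, 672 of Top2a (topoisomerase II), 624 of Ube2c and 561 of Birc5. Cluster 10 had 296 of Ube2c, 282 of Top2a, 241 of Birc5 and 206 of Mki67. These are 3′ counts, not divided by length, since 1 transcript gives its count at 1 end.

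A few members had UMIs in cells without a dividing call. Cenpa, the histone variant of the centromere, made up 115 of 199 G2/M UMIs in control B-like cells and 442 of 1312 in control macrophage-like cells without a call, with a UMI in 20.7% and 29.4% of the cells. Kif23, a kinesin of the cleavage furrow, made up 40 of 58 in control neutrophil-like cells, 33.7% of which had a UMI of it, and 28 of 37 in GS-KO ones. In B-like cells 7 UMIs of Kif23 were counted. Ube2c gave 3 UMIs and Top2a 5 in the same 458 B-like cells. Leaving Cenpa and Kif23 out of the call moved none of the shares of the 3 compared classes beyond counting error.

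The comparison of S with G2/M members asked where in the cycle the dividing cells stood. In the control library the S sum was 0.166 (0.160 to 0.172) of the G2/M sum in hepatocyte-like cells, 0.210 (0.200 to 0.220) in cluster 13 and 0.311 (0.288 to 0.334) in cluster 10. It was 1.33 in the other Kupffer- and macrophage-like, 1.11 in B-like and 1.505 in T-like cells, where both sums are low. The balance in hepatocyte-like cells lay below that in cluster 10 beyond counting error; the sums differ in how many genes and UMIs they hold, so a ratio under 1 is no share of cells.

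Both phases were also called by cell. With the same rule applied to S members, 35 control cells had both calls, 151 only the G2/M call and 44 only the S call. Hepatocyte-like cells had 7 with both, 50 with G2/M only and 4 with S only. Cluster 13 had 16, 33 and 6, with 1 cell of neither, and cluster 10 had 4, 16 and 5. Thus 7 of 57 dividing hepatocyte-like cells, 16 of 49 in cluster 13 and 4 of 20 in cluster 10 also had the S call. In the GS-KO library 1 cell had both, 11 only the G2/M and 7 only the S call. An S call draws on 9 genes and a G2/M call on 25, so the numbers of the 2 calls are not on 1 scale.

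**Figure D3:**
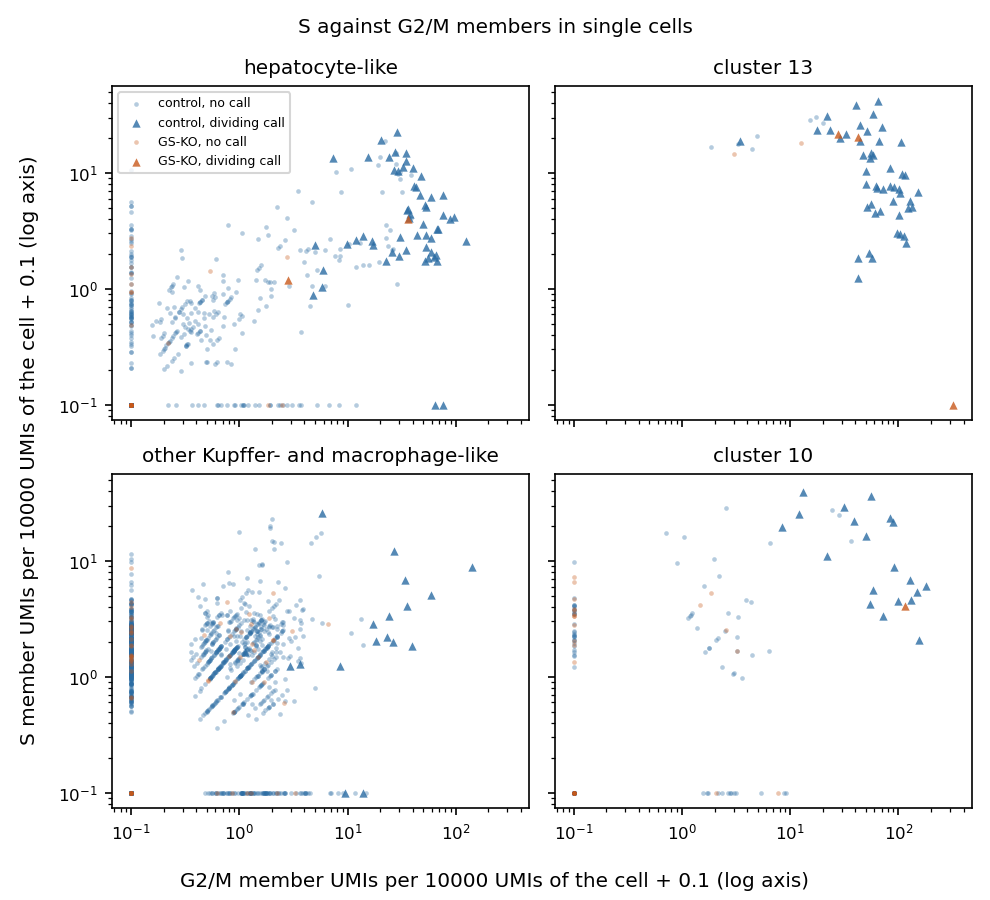
Each point is a cell with at least 1000 UMIs, plotted by G2/M member UMIs (horizontal) against S member UMIs (vertical) per 10000 UMIs of the cell, with 0.1 added on log axes; triangles are cells called dividing. In cluster 13 nearly all cells lie at the high G2/M side, with 49 of the 56 control cells called, while the other Kupffer- and macrophage-like cells lie low on both axes.

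S members, which the call did not use, were higher in dividing cells of each class. In control hepatocyte-like cells they summed to 423 CPM in the 57 dividing and 98.7 in the 413 other cells, 4.29-fold (4.02 to 4.57). In Kupffer- and macrophage-like cells with cluster 13 they stood at 1090 and 194 CPM, 5.62-fold (5.32 to 5.92), and in cluster 10 at 1501 and 496, 3.03-fold (2.65 to 3.46). All 9 S members were at least 1.5-fold higher in dividing cells of each of these classes, beside 18.4%, 17.9% and 17.5% of all genes tested. Rrm2, the small subunit of ribonucleotide reductase, was 6.34-fold, 71.5-fold and 6.18-fold higher, and Pcna 2.86-fold, 2.92-fold and 2.68-fold. Dividing cells were deeper, with median UMIs of 64367 against 33056 in hepatocyte-like cells, 25724 against 18126 in the macrophage class and 15349 against 6310 in cluster 10; the part of depth was not tested.

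Inside cluster 13 the order turned. Its 7 control cells without a dividing call had more S member UMIs than the 49 with one, 2191 against 1239 CPM, and 6 of the 7 had an S call. Pcna stood at 661 CPM in the 7 and 305 in the 49, and Mcm6, a helicase subunit, was at 0.31 of its level in the 7. Ube2c stood at 7.18 CPM in the 7 (1 UMI) and 683 in the 49. These 7 cells held 912 CPM of G2/M members against 6811 in the 49.

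Other genes of the cycle, from lists that leave out the members, followed the calls. Of 37 other replication genes with at least 20 UMIs in hepatocyte-like cells 35 were at least 1.5-fold higher in dividing cells and 1 lower, summed at 1035 against 341 CPM. All 54 other mitosis genes tested were higher there, 7334 against 1526 CPM. The macrophage class gave 37 of 37 and 55 of 55, and cluster 10 25 of 29 and 39 of 39. Among inhibitors, named here after their values were seen where they are not among the 3 with most UMIs, Cdkn2d (p19 of the INK4 family) stood at 53.8 against 7.01 CPM in hepatocyte-like cells and 73.5 against 7.82 in the macrophage class. Cdkn2c (p18) stood at 98.5 against 6.89 CPM in the macrophage class and at 65.2 against 47.0 in hepatocyte-like cells. Rbl1 (p107) was 4.90-fold and 4.71-fold higher in the dividing cells of these classes. Ccnd2 (cyclin D2) in cluster 10 was lower in dividing cells, 146 against 462 CPM.

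Ccnd1 did not follow the calls. In control hepatocyte-like cells it stood at 211 CPM in dividing and 191 in other cells, 1.11-fold (1.03 to 1.19), and 76.8% of the cells without a call had a UMI of it. In the macrophage class without cluster 13 it stood at 39.6 and 53.7 CPM, 0.739 of the level (0.436 to 1.17). Its highest class was endothelial-like, with 461 CPM in control and 458 in GS-KO cells, where 2 of 116 and 1 of 82 cells were dividing. In cluster 10, where 15.5% of control cells were dividing, 3 UMIs of Ccnd1 were counted. Ccne1 and Ccne2 stood at 22.4 and 18.7 CPM in control cluster 13 and at 1.98 and 2.51 in hepatocyte-like cells.

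Stmn1 (stathmin, which destabilises microtubules) was the most abundant member of dividing macrophages. It stood at 831 against 130 CPM in dividing and other hepatocyte-like cells, 6.37-fold (6.06 to 6.70), at 1131 CPM over control cluster 13, and at 1721 against 434 in cluster 10. In the GS-KO neutrophil-like cells 36 UMIs of Stmn1 were counted, 91.7% of them in 1 cell, against 3 in the control ones. Cdkn1a was 1.39-fold (1.16 to 1.66) higher in dividing than in other control hepatocyte-like cells and stood at 69.2 CPM in control cluster 13.

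The make-up of the G2/M sum differed between dividing cells of the classes. Ube2c made up 19.5% of G2/M UMIs in dividing hepatocyte-like cells, 9.96% in the macrophage class and 12.1% in cluster 10. Cdkn3, a phosphatase that acts on cyclin-dependent kinases, made up 4.64%, 1.17% and 1.23%, and Cdc20, the activator of the anaphase-promoting complex, 5.49%, 2.38% and 2.67%. The other way, Top2a made up 3.75%, 10.1% and 10.5%, Mki67 5.73%, 10.9% and 8.25%, and Kif23 0.371%, 4.80% and 1.82%. Birc5 was close across the 3, at 7.59%, 8.94% and 8.80%. Among S members, Tk1 made up 12.3%, 23.6% and 7.87% of the S sum. Cells of 1 class come from 1 mouse, so these intervals do not cover differences between mice.

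**Figure D4:**
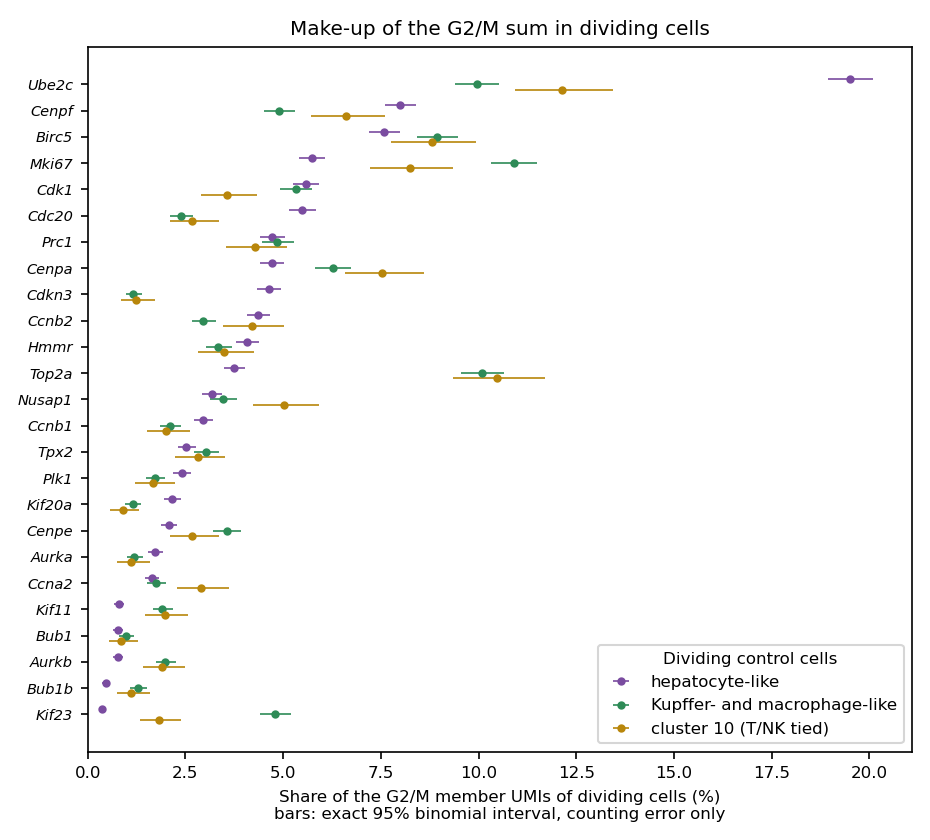
Share of each G2/M member (rows) in the G2/M member UMIs of dividing control cells, for hepatocyte-like cells, Kupffer- and macrophage-like cells and cluster 10, with exact 95% binomial intervals for counting error. Ube2c stands at 19.5% in hepatocyte-like cells and at 9.96% and 12.1% in the others, and Top2a at 3.75% against 10.1% and 10.5%.

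The comparison of the libraries within hepatocyte-like cells, the cells AAV8 reaches, set 484 control against 30 GS-KO cells, with median UMIs of 33894.5 and 8096.5. The dividing share was 12.1% (9.32 to 15.4) against 2 of 30, 6.67% (0.818 to 22.1), for GS-KO, so the shares were not told apart at this depth. The G2/M sum stood at 952 CPM against 131 (99.6 to 169) for GS-KO, log2 ratio -2.86, and 78.0% of the GS-KO UMIs came from 1 cell. Of 39 members 38 were at least 1.5-fold lower in the GS-KO cells, beside 31% of all genes tested, and 1 was higher, beside 20.3%. For 24 of the 38 lower members the interval lay below 1. Of the 38, 9 had 0 UMIs in the GS-KO cells, and these can also be among the 24. Of the 9, 2 pass 1.5-fold as a bound from the floor of 3 counts. By value or bound 31 members were thus lower, beside 17.8% of all genes counted so. The median log2 ratio of the members was -2.78, and -1.80 with those 9 at their bound, against 0.06 for all genes with UMIs in both libraries.

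The values of single members in these cells ran as follows. Ube2c stood at 165 CPM against 19.95 in the GS-KO cells, 8.25-fold lower (4.34 to 18.05). Mki67 had 1505 UMIs, 61.9 CPM, in the control and 1 UMI, 2.22 CPM, in the GS-KO cells, a ratio of 0.0358 (0.000905 to 0.200). Cdkn3 and Hmmr (a spindle protein) had 0 UMIs in the 30 cells and were at least 7.89-fold and 6.399-fold lower, with a floor of 3 counts for the group. Ccnd1 was 195 against 57.6 CPM, 3.38-fold lower, and Stmn1 259 against 44.3. Pcna stood at 47.3 and 28.8 CPM, and its interval held 1. Of 37 other replication genes 21 were at least 1.5-fold lower and 2 higher, but 9 of the 21 had 0 GS-KO UMIs and 13 were lower by value or bound; among the most abundant, Dut (dUTPase) stood at 32.2 and 15.5 CPM and Gmnn (geminin) at 28.8 and 11.1. Of 54 other mitosis genes 49 were lower and 1 higher, but 27 of the 49 had 0 GS-KO UMIs and 29 were lower by value or bound; Spc24, a kinetochore protein, stood at 176 and 46.6 CPM. When cells were thinned to 1000 UMIs before summing, 7 members stood at least 1.5-fold lower and 0 higher. The minimum of 20 UMIs was applied after thinning, which leaves fewer UMIs per member. The number of members that met it is not given, so the 7 cannot be set against the 38.

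The hepatocyte comparison depended on which cells carried the name. With finer clusters, at a resolution of 2, the dividing control share among hepatocyte-like cells was 3.38% and the G2/M log2 ratio 0.39. With cycle genes kept in the clustering they were 1.46% and -1.71. With cells assigned by the marker list with most UMIs they were 14.1% and -2.69, and the GS-KO share was 2 of 51, 3.92% (0.478 to 13.5). Without the cell with most G2/M UMIs of each library the log2 ratio was -4.92.

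Cdkn1a was the member that stood higher in GS-KO hepatocyte-like cells, with 682 UMIs or 28.1 CPM in 484 control and 172 UMIs or 381 CPM in 30 GS-KO cells. That is 13.6-fold (11.4 to 16.1) as a sum. A single GS-KO cell held 85.5% of the 172 UMIs. Averaged over cells the log2 difference was 1.68 against 3.76 as a sum. A UMI of Cdkn1a was seen in 30.4% of control and 36.7% of the shallower GS-KO cells. After the cells were thinned to equal depth, a UMI of it remained in 3.83% of control and 3.33% of GS-KO cells. At equal depth the share of cells with Cdkn1a was thus not higher in GS-KO. Of 16 other p53 target genes 11 were at least 1.5-fold higher and 4 lower in GS-KO hepatocyte-like cells, beside the 20.3% and 31% of all genes, and 3 of the 4 lower ones had 0 GS-KO UMIs and do not pass as a bound. They summed to 293 and 576 CPM. Bax stood at 113 and 171 CPM, Trp53inp1 at 36.8 and 68.7 and Ccng1 (cyclin G1) at 29.5 and 84.2. In endothelial-like cells Cdkn1a stood at 98.0 CPM against 244 for GS-KO, 2.49-fold higher (1.90 to 3.28), beside 12.6% of genes at least 1.5-fold higher; its UMIs there were in 22.8% and 36.6% of cells and 1 cell held 19.5% and 24.0%.

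In the macrophage class the outcome turned on the 5 GS-KO cells of cluster 13. With them, the G2/M sum was 584 CPM in 1168 control and 533 in 72 GS-KO cells, the S sum 271 and 468, and 13 members were at least 1.5-fold higher and 7 lower, beside 14.6% and 19.1% of all genes. The 5 cells gave 87.1% of the G2/M and 70.1% of the S member UMIs of the GS-KO class and 16.9% of all its UMIs, and they lacked macrophage markers as described above. They held 42 of the 44 Ccne1 UMIs, 71 of the 72 of Rrm2, 59 of the 62 of Mcm6 and 92 of the 102 of Mki67.

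Without those 5 cells, and with all control cells kept, the members were lower in the GS-KO macrophages. The G2/M sum was then 82.7 CPM (66.5 to 102) against 584 (574 to 594), 7.06-fold lower (5.74 to 8.79), and the S sum 168 (145 to 194) against 271 (264 to 278), 1.61-fold lower (1.39 to 1.88). All 25 G2/M members and 7 of 9 S members were at least 1.5-fold lower, 34 of 39 in all, beside 21.1% of all genes, and 1 (Cdkn1a) was higher, beside 9.17%. The 34 hold 12 members with 0 GS-KO UMIs, of which 11 pass 1.5-fold as a bound and Ccne2, with 41 control UMIs, does not, so 33 were lower by value or bound. For 33 members the interval lay below 1. Birc5 had 1076 control UMIs and 1 GS-KO UMI, 48.1 against 0.919 CPM. Top2a stood at 54.8 and 2.76 CPM, Ube2c at 53.6 and 3.68, Mki67 at 60.2 and 9.19, and Prc1, which bundles spindle midzone microtubules, at 25.6 CPM in the control with 0 GS-KO UMIs, at least 9.28-fold lower. Cenpa, with UMIs in cells without a dividing call, stood at 55.0 and 31.3, and Pcna at 113 and 92.9. Tyms (thymidylate synthase) was at 15.8 and 18.4 CPM with an interval that held 1. Cdkn1a stood at 33.7 and 54.2 CPM, 1.61-fold higher (1.21 to 2.10), and 1 cell held 55.9% of its 59 GS-KO UMIs. Choosing to leave these cells out was done after seeing the data. The control side kept its 56 cells of cluster 13, with 10105 of its 13079 G2/M UMIs and 49 of its 67 dividing cells. Lower G2/M values in GS-KO were thus in large part set by leaving the cluster out of 1 library only.

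With cluster 13 left out of both libraries the difference was smaller. The G2/M sum was 143 against 82.7 CPM and the S sum 190 against 168, whose intervals (184 to 196 and 145 to 194) overlap. Of 35 members with enough UMIs 25 were at least 1.5-fold lower, beside 19.2% of all genes, and 2 higher, beside 9.78%, but the interval lay below 1 for 6. Of the 25, 11 had 0 GS-KO UMIs and only Cenpe passes as a bound, at least 1.66-fold lower, so 15 were lower by value or bound, beside 15.4% of all genes counted so.

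The 3 dividing GS-KO cells of the class were among the 5 left out, so 0 of the other 66 were dividing by that choice, which allows a share of up to 4.55% by the 3-count limit (exact upper limit 5.44%). The control share was 67 of 1164, 5.76% (4.49 to 7.25), with cluster 13, and 18 of 1108, 1.62% (0.966 to 2.56), with cluster 13 left out there too. The latter lies inside the GS-KO interval, so outside cluster 13 no difference in share was detectable. The levels of the GS-KO cells were near those of control macrophages without a dividing call. Outside cluster 13, the 1090 control cells without a call had 85.9 CPM of G2/M members and 180 of S members. The call uses G2/M members, so the low G2/M sum of cells without it is in part set by that choice. By the marker list with most UMIs, 3 of 155 GS-KO cells with Kupffer or macrophage markers were dividing, 1.94% (0.401 to 5.55), and their G2/M members summed to 85.4 CPM against 548 in the control library. Those 3 were the shallow cells of clusters 3 and 15. In the control library 7 dividing hepatocyte-like cells and 5 of cluster 2 also fell under these markers. With so few GS-KO macrophages, a share below the control one by a small amount was not detectable.

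**Figure D5:**
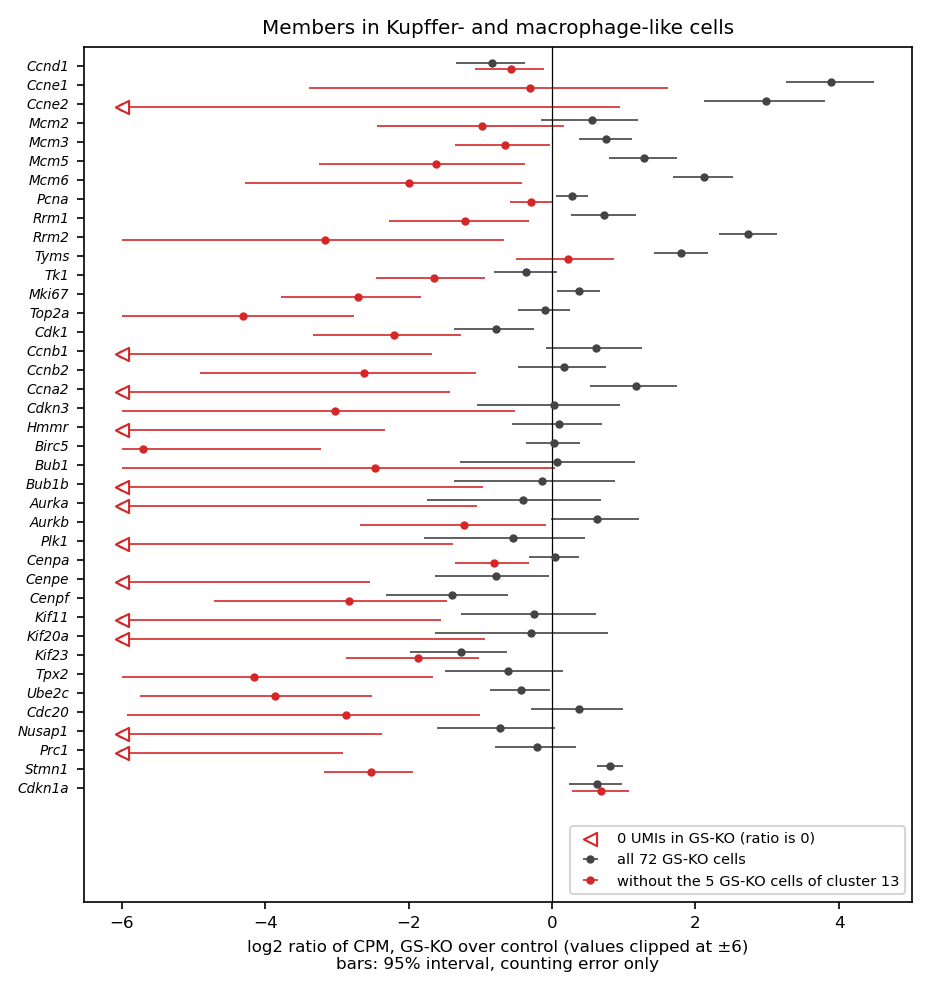
log2 ratio of CPM, GS-KO over control, for each of the 39 members in Kupffer- and macrophage-like cells, with 95% intervals for counting error. Black uses all 72 GS-KO cells and red leaves out the 5 GS-KO cells of cluster 13. Both use all control cells, those of cluster 13 among them. Black points lie on both sides of 0, while in red 34 of the 39 members are at least 1.5-fold lower. Of these, 12 have 0 GS-KO UMIs (open triangles, drawn at the edge), and Ccne2 is the 1 of them that does not pass 1.5-fold as a bound.

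T-like cells and cluster 10 together had 343 control and 103 GS-KO cells. The dividing share was 20 of 339, 5.90% (3.64 to 8.96), against 1 of 97, 1.03% (0.0261 to 5.61), for GS-KO. The G2/M sum was 1340 and 330 CPM, and 64.1 for GS-KO without the cell that gave 81.0% of it. Of 37 members with at least 20 UMIs 37 were at least 1.5-fold lower in the GS-KO cells, beside 25.9% of all genes (6.62% were higher); Ccnd1 and Cdkn1a had too few UMIs. Mki67 stood at 105 and 7.63 CPM, Stmn1 at 451 and 124, Top2a at 143 and 26.0 and Pcna at 146 and 56.5. After thinning to 1000 UMIs per cell 2 members stood at least 1.5-fold lower and 0 higher. The minimum of 20 UMIs was applied to the thinned counts, and the number of members that met it is not given. Over cluster 10 alone the shares were 15.5% (9.73 to 22.9) and 1 of 27, 3.70% (0.0937 to 19.0), whose intervals overlap.

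In neutrophil-like cells the libraries stood the other way in sum. The G2/M members had 252 CPM in 99 control and 702 in 104 GS-KO cells, and 83.9% of the latter came from the cell with 203 G2/M UMIs described above. Without it the GS-KO sum was 126 CPM (89.3 to 172). Kif23 stood at 176 CPM in control and 87.0 in GS-KO cells of the class. Over all kept cells the G2/M sum was 758 CPM against 320 for GS-KO, and the S sum 221 against 233. Its 2 cells with most G2/M UMIs, the deep erythroid ones, gave 28.5% of the S member UMIs of the GS-KO library, and without them its S sum was 172 (160 to 185).

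Endothelial-like cells had lower sums in the GS-KO library. The S sum was 291 against 147 CPM, a ratio of 0.505 (0.397 to 0.640), and the G2/M sum 178 against 78.7, a ratio of 0.442 (0.318 to 0.608). A single cell held 28.9% of the G2/M UMIs in the control and 7.41% in GS-KO. By the marker list with most UMIs, 1 of the 2 dividing control cells of the class carried Kupffer or macrophage markers. Of 11 members with at least 20 UMIs 5 were at least 1.5-fold lower, beside 16.1% of all genes, and 1 (Cdkn1a) was higher. The interval lay below 1 for Mcm5, Mcm6, Pcna and Cdk1. Pcna stood at 100 and 62.7 CPM, 1.60-fold lower (1.10 to 2.37), and Mcm6, a subunit of the replicative helicase, at 28.7 and 8.75.

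The shallow cells of cluster 3 stood the other way. In 277 control and 35 GS-KO cells, 9 of 17 members with at least 20 UMIs were at least 1.5-fold higher in GS-KO, beside 21.8% of all genes, and 2 lower, beside 29.2%. The interval lay above 1 for 6 and below 1 for 0. Stmn1 stood at 221 and 527 CPM and Tyms at 28.0 and 157. The G2/M sum was 565 against 998 CPM and the S sum 358 against 715, but 1 GS-KO cell gave 77.2% and 56.0% of its library's UMIs in them. Without the cell with most G2/M UMIs of each library the G2/M sums were 497 and 330 CPM and the S sums 352 and 455. Cluster 2 had 185 control and 40 GS-KO cells. There 7 of 9 members with at least 20 UMIs were at least 1.5-fold lower in GS-KO, beside 33.5% of all genes. Of the 7, 4 had 0 GS-KO UMIs and pass 1.5-fold as a bound. The other 2, beside 17.2%, were higher: Ccnd1 at 135 and 232 CPM and Cdkn1a at 32.2 and 70.8. Dividing cells numbered 21 of 124 in the control and 0 of 28 in GS-KO (exact upper limit 12.3%).

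In classes with 0 dividing cells in both libraries few members had enough UMIs. In monocyte-like cells 7 had, of which 3 were at least 1.5-fold lower in GS-KO, beside 17.6% of all genes, and 1 higher, beside 11.7%. Ccnd1 and Mcm3 each had 21 control UMIs and 1 GS-KO UMI, 8.41-fold lower (1.35 to 348), and Stmn1 had 29 and 2, 5.81-fold lower (1.47 to 50.2). Cdkn1a stood at 29.4 and 50.5 CPM, a ratio of 1.72 (0.923 to 3.15). In B-like cells 6 members had at least 20 UMIs, of which 1 was at least 1.5-fold lower in GS-KO, beside 26.9% of all genes, and 0 higher, beside 6.43%; the interval of each of the 6 held 1. In T-like cells 5 had enough UMIs, with 1 higher, beside 8.79%, and 0 lower, beside 19.6%, and again every interval held 1. Most members could not be compared in these 3 classes for lack of UMIs.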

How the data were processed

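RNA was counted in 2 droplet libraries, control and GS-KO, 1 mouse each, so there are no replicates and no test. The authors deposited raw UMI counts per gene and barcode, made with Cell Ranger and mm10 per the submitters' processing notes; the matrix headers name version 3.1.0. The labels call the material single-nucleus in 1 place, while the protocol describes isolated cells, and this was not settled. How the tumours arose is not given in the sources used here.

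Barcodes were kept at 500 UMIs, 200 genes and 20% mitochondrial UMIs. Clusters came from scanpy 1.11.5 in Python 3.11.15 (2000 variable genes without 233 listed cycle and histone genes, 30 components, 15 neighbours, Leiden resolution 1). Names came from marker lists: at least 3 markers 2-fold above the other cells, or 5 where none was among the top 10 genes. Scrublet doublets were counted and kept. Levels are summed UMIs as CPM with exact Poisson intervals (scipy 1.17.1), shares have Clopper-Pearson intervals, and ratios conditional binomial ones. Members with at least 20 UMIs over both libraries entered comparisons, and 1.5-fold was the size named. On simulated counts without variation between cells, the comparison recovered most of the large changes planted in abundant genes. No change near 1.5-fold or in genes near 20 UMIs was planted. All 39 members were accounted for. Members with enough UMIs in the classes highest in G2/M or with 30 cells per library were examined, and a part of them is named in the text. The members, gene lists and comparisons were chosen with earlier results of these data known. Alternatives changed the call, thinning, filters, clustering, naming and summing.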

Additional observations from a re-analysis of the deposited data

Results flagged for a closer look

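Barcodes above the mitochondrial limit entered no comparison, yet they carried members. The 314 such GS-KO barcodes with at least 500 UMIs and 200 genes had an S member sum of 185 CPM of their non-mitochondrial UMIs (143 to 235), above the 111 (99.3 to 123) of the 848 control ones. Their G2/M sums stood the other way, at 307 CPM in GS-KO and 679 in the control.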

How the results depend on the processing

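No paired analysis was possible because each group is 1 mouse and the labels carry no shared replicate numbers. Of the alternatives for the main comparisons, 115 kept direction and size, 64 moved and 10 reversed; for single genes these were 35, 25 and 14. Below, hep is hepatocyte-like, mac Kupffer- and macrophage-like, T10 T-like with cluster 10; shares are percent dividing, ratios log2 GS-KO over control.

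With 1 G2/M member the control shares were 20.9 (hep), 12.4 (mac) and 13.6 (T10) and mac GS-KO 12.7. With 3 they were 8.72 (hep) and 4.47 (mac). At 2000 UMIs hep control was 18.5. Unthinned shares were 42.4 (hep control), 34.2 and 29.2 (mac control and GS-KO) and 15.5 and 8.74 (T10).

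With cycle genes kept in clustering, control shares were 1.46 (hep) and 1.62 (mac), G2/M -1.71 (hep) and 0.32 (mac), S -0.037 (hep) and 0.11 (mac), and Rrm2 in mac -0.49. At resolution 2, control shares were 3.38 (hep) and 2.11 (mac) with mac GS-KO 0, G2/M 0.39 (hep) and -0.87 (mac), S 0.045 (hep) and -0.19 (mac), Ube2c in hep 0.065, Rrm2 and Mki67 in mac -0.24 and -0.35. With doublets removed, mac had a control share of 2.26, G2/M -0.81, S -0.11, Rrm2 -0.27 and Mki67 -0.45. At a mitochondrial limit of 10%, mac shares were 1.62 and 0, G2/M -4.83 (hep) and -0.67 (mac), S -0.12 and Mki67 -0.11 in mac. At 1000 UMIs mac shares were 1.58 and 0. The cause of these shifts was not tested.

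The next alternatives were chosen after seeing the data. Without the 5 GS-KO cells of cluster 13, and with all control cells kept, mac had a GS-KO share of 0, G2/M -2.82 and S -0.69. Ccne1 was -0.31, Rrm2 -3.17 and Mki67 -2.71, and 34 members were lower and 1 higher. With cells assigned by most abundant markers, mac had G2/M -2.67, S -0.64, Ccne1 -0.35, Rrm2 -2.44, Mki67 -3.00, 34 lower and 1 higher, and the control S to G2/M balance was -2.68 (hep) and -1.17 (mac). Without the top G2/M cell, G2/M was -4.92 (hep), -0.68 (mac) and -4.21 (T10), S 0.52 in mac, with 16 mac members lower. Without the top 2 cells, G2/M was -5.48, -1.61 and -4.15, and mac had S -0.043, Mki67 -0.17, 25 lower and 2 higher. For the marker assignment and the choices without top cells, the share of all genes lower or higher is not given. Whether these member counts exceed that share was not tested.

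As a mean over cells, G2/M was -2.17 (hep), 0.57 (mac) and -1.71 (T10), and S 0.13 (mac) and -0.88 (T10). Thinned before summing, hep had 7 members lower and 0 higher, mac 1 higher and T10 2 lower, among the members that still had 20 UMIs. At 2-fold mac had 2 lower and 7 higher. The share of all genes is not given for the thinned or the 2-fold counts either, so they have no background to be set against. The balance without its top member was -2.83, -1.75 and -1.87, and from other replication and mitosis genes -2.47, -1.66 and -1.78 (hep, mac, T10). Depth limits GS-KO: 30 hepatocyte-like cells and 606 cells with 1000 UMIs in all.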
